A study of Rattus norvegicus with 12 samples.

Results

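The 7 genes described here are markers of Schwann cells and neurons, read in cultured heart muscle cells from newborn rats: Uchl1, Pmp22, Sox10, Mbp, Cdh19, Ngfr and Gap43. They were chosen by name, with earlier results of these data known. Each was found through the probe sets that the platform annotation gives exactly 1 gene symbol. They are 7 of the 14324 genes that could be named, and 8 of the 27342 probe sets of the table belong to them, 2 of these to Mbp. All cells came from 1 litter of 2-day-old Sprague-Dawley pups, were freed from the heart with enzymes and were grown for 3 days before treatment. For another 3 days, 6 control cultures received the vehicle, 0.1% DMSO, and 6 cultures received 50 µg/mL DEHP in the same amount of DMSO. DEHP is a phthalate that makes plastics such as medical tubing flexible. Samples within a group are biological replicates per the labels, with 1 array each, so every test below reads the spread between cultures and arrays, and none reads the spread between litters.

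Schwann cells are the glia of peripheral nerves. Some wrap axons in myelin, and others hold small axons without it. The heart is reached by sympathetic and parasympathetic fibres and holds its own small ganglia, so a digest of whole hearts may carry glia and neurons beside muscle cells, fibroblasts, smooth muscle and endothelium. Several of the 7 genes are also made outside nerves. Uchl1 encodes a ubiquitin hydrolase that is very abundant in neurons, and Pmp22 a membrane protein of compact myelin that was also found as a growth arrest gene in fibroblasts.

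The deposited number for a probe set on an array is its signal divided by the median of that probe set over the 12 arrays, and all values below are log2 of this ratio. A value of 0 is the middle of the 12 arrays. The level of a gene is not held in such ratios. Whether Schwann cells or neurons were present, and whether the cardiomyocyte markers were high, could therefore not be checked, nor can 1 gene's level be set against another's. Control replicate 5 and DEHP replicate 6 stood apart from the rest, since the SD of log2 ratios over all probe sets was 0.37 in the first and 0.27 in the second, and no other array exceeded 0.19. Without both, 2658 probe sets were lower and 3122 higher, beside 2139 and 2877 with all arrays.

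Under DEHP, 2 of the 7 genes were lower and the other 5 did not pass the test. Uchl1 was 2.19-fold lower and Pmp22 was 1.23-fold lower. A gene passed at an adjusted p under 0.05 in limma, with Benjamini-Hochberg adjustment over all probe sets. By the same rule 10.2% of the named genes (7.82% of all probe sets) were lower and 14.4% (10.5% of all probe sets) were higher. No marker was higher by limma, and the number higher at an unadjusted p under 0.05 was also 0. The median log2 fold of the 7 genes was −0.02, and that of all named genes was −0.02 as well. The groups did not overlap in 2 of the 7 genes, the same pair, against 16.9% of all named genes.

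The stretch of genome just before the start of each gene that fell is shown because the pair moved in the same direction. The RefSeq promoter table of the assembly GRCr8 held 4 of the 7 genes, leaving out Sox10, Ngfr and Gap43. Each line gives the 250 bases before the annotated start, 5′ to 3′ on the gene's strand, with the motif matches described below in capitals. The window of Uchl1 lies on the minus strand at chr14:41849418-41849667, and that of Pmp22 on the plus strand at chr10:48294682-48294931.
Uchl1: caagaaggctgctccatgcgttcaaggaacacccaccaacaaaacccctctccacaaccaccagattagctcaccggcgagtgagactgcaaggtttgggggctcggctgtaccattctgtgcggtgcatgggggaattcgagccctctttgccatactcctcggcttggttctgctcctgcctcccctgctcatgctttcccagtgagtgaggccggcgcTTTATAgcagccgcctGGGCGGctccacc
Pmp22: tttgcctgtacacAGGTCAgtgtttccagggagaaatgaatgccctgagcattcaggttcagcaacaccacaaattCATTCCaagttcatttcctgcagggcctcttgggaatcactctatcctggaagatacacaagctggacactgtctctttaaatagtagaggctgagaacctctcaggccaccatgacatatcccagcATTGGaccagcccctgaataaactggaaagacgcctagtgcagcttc
Motifs were searched on both strands as exact letters. Uchl1 held TATAAA once, on the opposite strand and 29 bases before the start. It also held GGGCGG once, 13 bases before it. Pmp22 held neither of these. It held CCAAT once on the opposite strand, 47 bases before the start. The motif GGAATG was found 174 bases before it, also on the opposite strand. Its match to AGGTCA lay 237 bases before the start, and Uchl1 held none of these 3. The motif AACAAT was not found in either window. The same was true of CANNTG and of the CArG box. Of 33469 RefSeq windows of this length, the motif TATAAA was in 12.9%, while GGGCGG was in 30.5% and CCAAT was in 34%. The motif GGAATG was in 12.1%, while AGGTCA was in 14.1% and AACAAT was in 10.3%. The E-box letters CANNTG were in 65.5% and the CArG box in 1.5%. The matches do not overlap each other. The share of G and C was 59.6% for Uchl1 and 48% for Pmp22, with a median of 51.2% over all windows. A match is a description of letters and not a site.

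Among the neuronal markers, Uchl1 (probe set 10776739) had control values from 0.45 to 0.67 with a median of 0.59. Its DEHP values ran from −0.77 to −0.45 with a median of −0.50. The lowest control array therefore lay 0.89 above the highest DEHP array, and the groups were far apart compared with the spread within either. The control mean was 0.58 ± 0.08 and the DEHP mean −0.55 ± 0.13 (each ± SD of 6 arrays). The log2 fold was −1.13 ± 0.06 (SE, 95% interval −1.26 to −0.997, limma adjusted p = 8.51e-08). An exact two-sided permutation test of this value over the arrays gave p = 0.00216, the smallest that 924 splits allow. Uchl1 ranked 102nd from the largest fall among the 14324 named genes. DEHP replicate 3 was the lowest array, and control replicate 5 was the lowest control. In RNA from a whole culture, fewer cells of a type and less RNA per cell cannot be told apart, and this holds for every gene below.

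Gap43 (probe set 10751218), a protein of growing axon tips that some Schwann cells also make, did not follow Uchl1. Its control values ran from −0.15 to 0.24 with a median of −0.04, and its DEHP values from −0.14 to 0.06 with a median of 0.02. The DEHP range lay wholly inside the control range, whose highest arrays were control replicates 3 and 5. The log2 fold was −0.02 ± 0.07 (95% interval −0.17 to 0.12, limma adjusted p = 0.87). Its interval does not reach that of Uchl1.

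**Figure D1:**
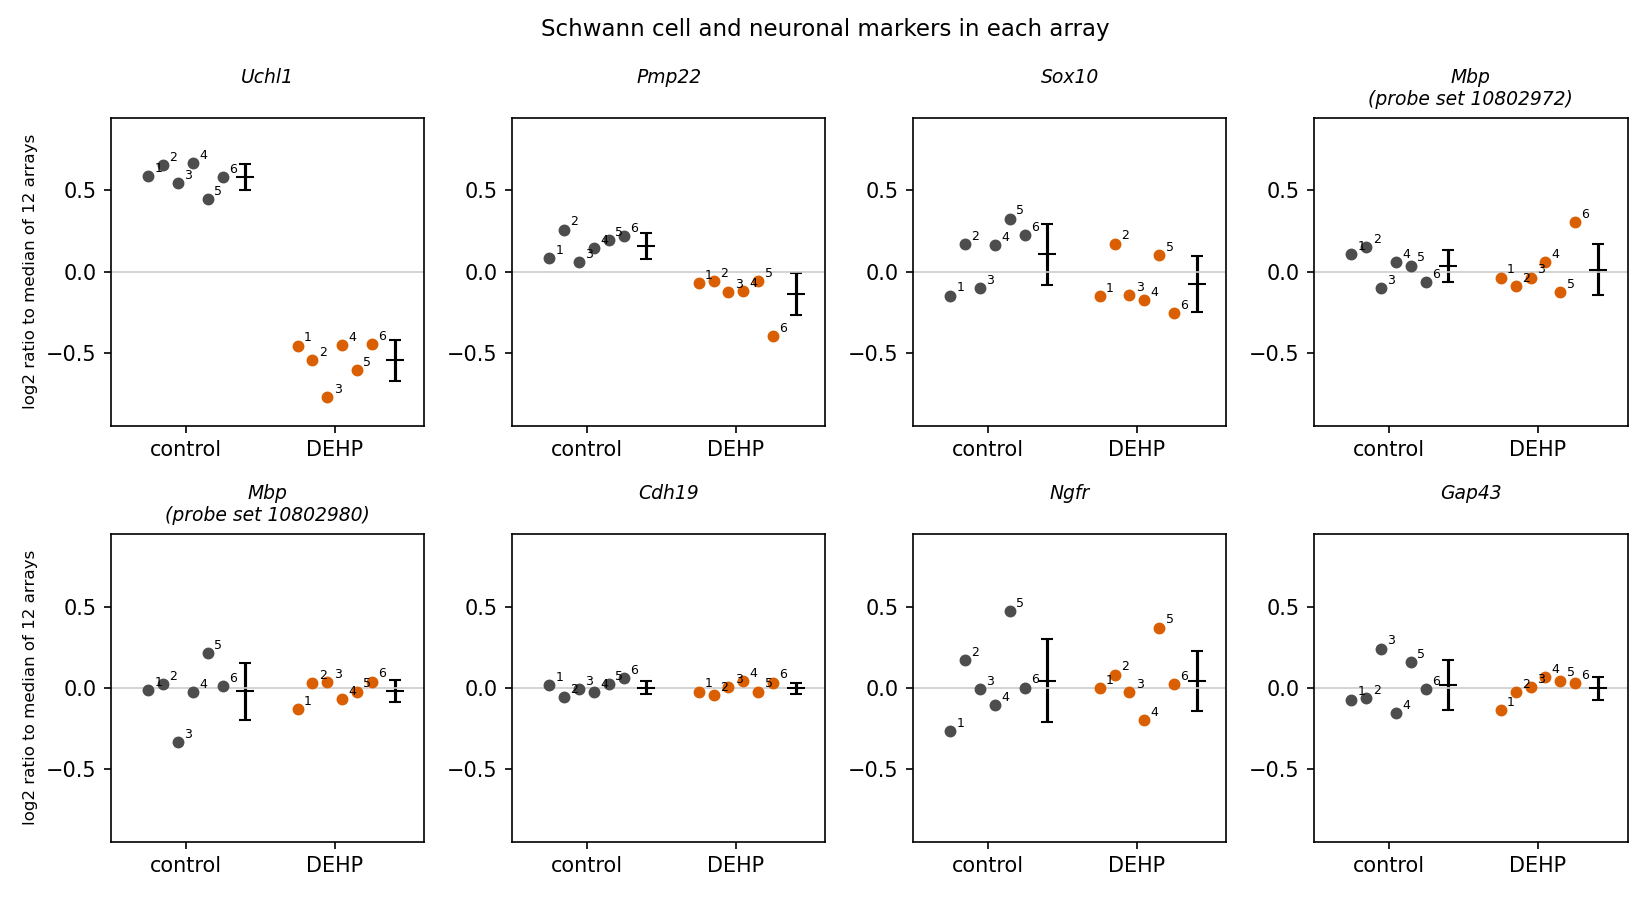
Log2 ratio to the median of the 12 arrays (vertical axis) for each probe set of the 7 genes, with 1 point per array numbered by replicate, and the mean ± SD of the 6 arrays of a group beside them. Uchl1 and Pmp22 are the panels where the groups do not overlap, with Uchl1 between 0.45 and 0.67 in controls and between −0.77 and −0.45 under DEHP.

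Of the myelin genes, Pmp22 (probe set 10734382) fell by a small amount. Control values ran from 0.06 to 0.26 with a median of 0.17, and DEHP values from −0.40 to −0.06 with a median of −0.10. The groups did not overlap, with control replicate 3 and DEHP replicate 5 nearest to each other. The control mean was 0.16 ± 0.08 and the DEHP mean −0.14 ± 0.13 (each ± SD of 6 arrays), and the log2 fold was −0.30 ± 0.06 (95% interval −0.43 to −0.17, limma adjusted p = 0.0037, exact permutation p = 0.00216). DEHP replicate 6 was lowest at −0.40, while the other 5 DEHP arrays lay between −0.13 and −0.06. Without that array the log2 fold was −0.25 (limma adjusted p = 0.0015), so the call did not rest on it. The 95% intervals of Pmp22 and Uchl1 did not overlap.

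Mbp encodes the main protein on the inner face of compact myelin, and the same locus also gives longer transcripts outside myelinating glia. Its first probe set (10802972) ranged from −0.10 to 0.15 in controls (median 0.05) and from −0.13 to 0.30 under DEHP (median −0.04). The highest array was DEHP replicate 6, and the groups overlapped. The log2 fold was −0.02 ± 0.07 (95% interval −0.18 to 0.14, limma adjusted p = 0.88). The other probe set (10802980) had a log2 fold of 0.00056 ± 0.07 (limma adjusted p = 0.997), with controls from −0.33 to 0.21 and DEHP arrays from −0.13 to 0.04. On that probe set the extreme arrays were control replicates 3 and 5.

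Neither of the lineage genes, Sox10 and Cdh19, passed. Sox10 (probe set 10905378), the transcription factor that neural crest and Schwann cells depend on, ranged from −0.15 to 0.33 in controls (median 0.17) and from −0.26 to 0.17 under DEHP (median −0.15). Control replicates 1 and 3 lay below 0 beside most DEHP arrays, and DEHP replicates 2 and 5 lay above 0, so the groups overlapped. Its log2 fold was −0.18 ± 0.10 (95% interval −0.39 to 0.03, limma adjusted p = 0.25). With arrays weighted by their noise it was −0.22 with a limma adjusted p of 0.042, so its call depends on that setting, and without control replicate 5 and DEHP replicate 6 it was −0.10 (limma adjusted p = 0.59).

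Cdh19 (probe set 10767016), a cadherin of Schwann cells and their precursors, hardly varied. All 12 arrays lay between −0.06 and 0.06, and the pooled SD within groups was 0.038, where the median over all probe sets was 0.12. Only 4.36% of probe sets had a pooled SD as small. The log2 fold was −0.0039 ± 0.03 (95% interval −0.07 to 0.06, limma adjusted p = 0.95). The interval is the narrowest of the 7 genes. What sets such a small spread was not tested, since brightness over background is not held in the ratios.

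Ngfr (probe set 10746538), the p75 receptor for neurotrophins found on immature Schwann cells and sympathetic neurons, had the largest spread of the 7. Controls ran from −0.26 to 0.47 with a median of −0.0024, and DEHP arrays from −0.20 to 0.37 with a median of 0.01. The highest array of each group was replicate 5, at 0.47 in controls and 0.37 under DEHP. The pooled SD was 0.22, and 87.0% of probe sets had a pooled SD no larger. The log2 fold was −0.0029 ± 0.12 (95% interval −0.26 to 0.25, limma adjusted p = 0.99). This interval is the widest of the 7 genes.

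**Figure D2:**
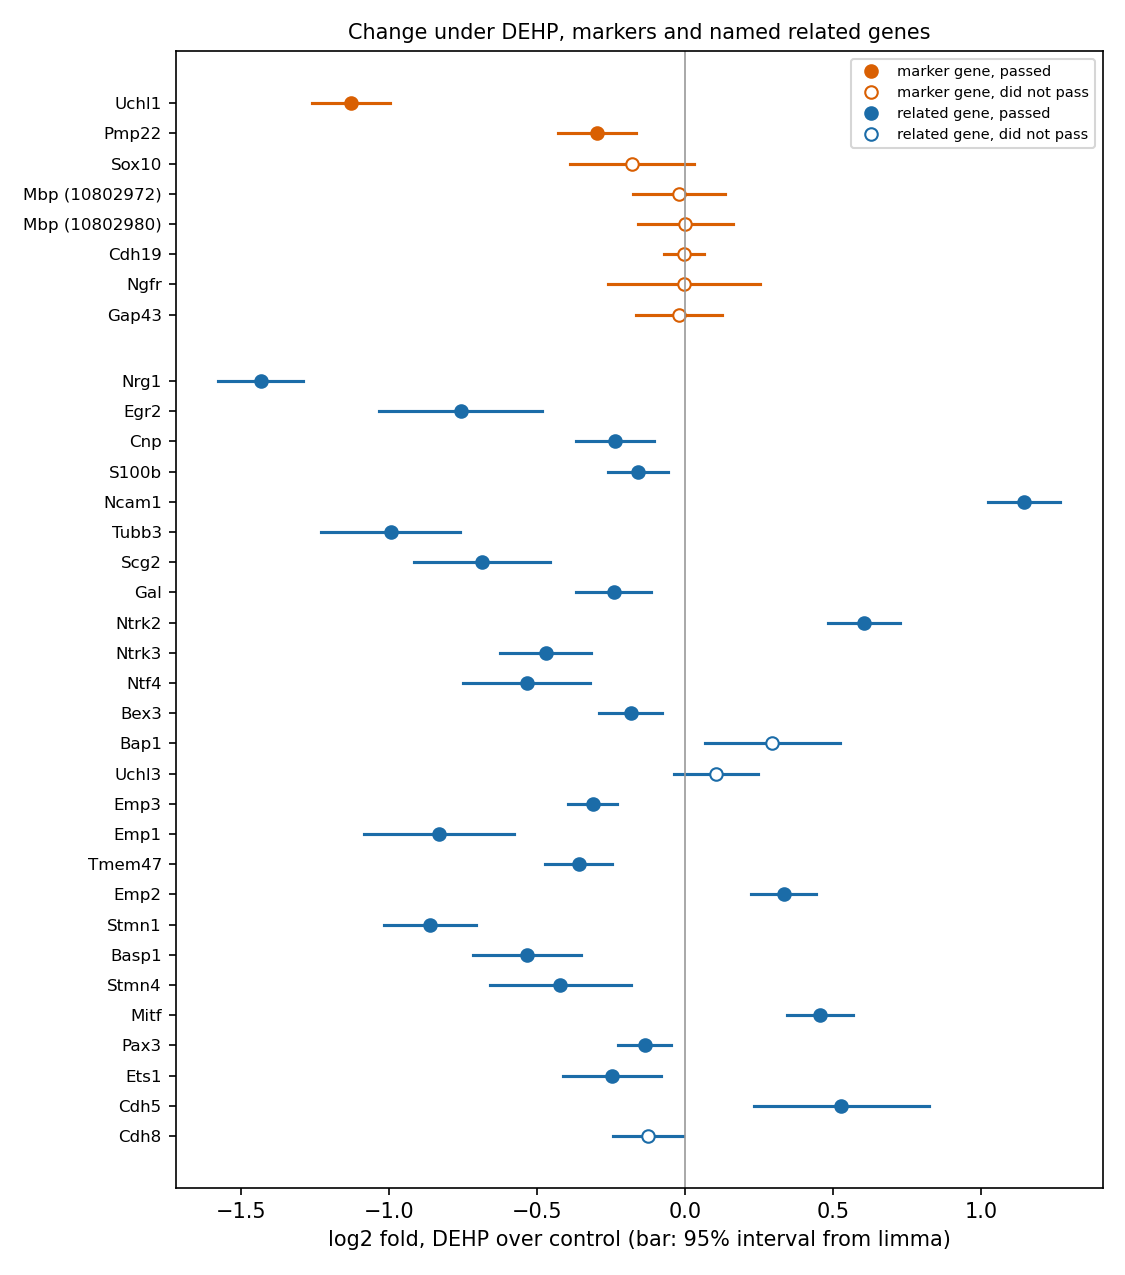
Log2 fold of DEHP over control (horizontal axis) with its 95% interval from limma, for the 8 probe sets of the 7 marker genes (orange) and for the named genes of the related lists (blue); filled points passed at an adjusted p under 0.05. Uchl1 at −1.13 and Pmp22 at −0.30 are the filled orange points, and the interval of Cdh19 is the shortest.

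Related genes were grouped in 8 lists, which held 109 genes and no member of the 7. Of the 95 that were measured, 19 were lower (20%) and 5 were higher (5.26%), beside 10.2% and 14.4% of all named genes. Without control replicate 5 and DEHP replicate 6 these counts were 21 and 7. Their median log2 fold was −0.10, against −0.02 for all named genes. The lists were chosen with earlier results of these data known, and no test was made of them as sets.

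Among 20 other Schwann cell and glial genes 4 were lower, none was higher by limma or at an unadjusted p under 0.05, and 16 did not pass. Nrg1, the axonal growth factor that Schwann cells depend on and that endothelium also makes, fell most, with a log2 fold of −1.43 ± 0.07 (limma adjusted p = 3.46e-08). Egr2, a transcription factor of myelination that is also an immediate-early gene, had a log2 fold of −0.76 ± 0.13, with DEHP replicate 6 at −0.0069 and the other DEHP arrays between −0.93 and −0.61. Cnp, a myelin enzyme, had a log2 fold of −0.24 ± 0.06. S100b, a calcium-binding protein of glia, had −0.16 ± 0.05 (limma adjusted p = 0.033). Its call was lost when any 1 of 9 arrays was left out and stayed without control replicate 1, control replicate 3 or DEHP replicate 5. The list's median was −0.12, and −0.03 without control replicate 5 and DEHP replicate 6. The log2 fold was below 0 in 19 of the 20 genes with all arrays and in 15 without that pair, beside 55.4% and 50.1% of all named genes.

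Other neuronal genes gave 3 falls and 1 rise among 30, and 26 did not pass. Tubb3, the neuronal tubulin that other cells can make too, was 1.99-fold lower (log2 fold −0.99 ± 0.11), with DEHP replicate 6 at −1.09 and the other DEHP arrays between −0.55 and −0.34. Scg2, a protein of secretory granules, had a log2 fold of −0.69 ± 0.11, and Gal, which encodes the neuropeptide galanin, −0.24 ± 0.06. Ncam1, the neural cell adhesion molecule, which heart muscle also makes, went the other way and was 2.21-fold higher (log2 fold 1.15 ± 0.06, limma adjusted p = 5.46e-08). Genes of sympathetic neurons, named here after their values were seen, did not pass in the fit as reported. Under some alternatives with all arrays Npy did pass, such as quantile normalization (limma adjusted p = 0.017) and array weights (limma adjusted p = 0.0011). Th, the enzyme that starts catecholamine synthesis, had a log2 fold of −0.02 ± 0.08, and Dbh, which makes noradrenaline, −0.17 ± 0.06 (limma adjusted p = 0.87 and 0.09). Phox2a, a transcription factor of these neurons, had −0.22 ± 0.16 (limma adjusted p = 0.40). Npy, which encodes neuropeptide Y, had −0.43 ± 0.15 (limma adjusted p = 0.058). Its controls ran from −0.02 to 0.27, and 5 DEHP arrays from −0.64 to −0.36, while DEHP replicate 6 was the highest of the 12 at 0.40. Without that array the log2 fold of Npy was −0.58 (limma adjusted p = 2.31e-05), past the threshold. The median of the list was −0.09, and −0.02 without control replicate 5 and DEHP replicate 6. The log2 fold was below 0 in 26 of the 30 genes with all arrays and in 18 without that pair. Of all named genes, 55.4% and 50.1% were below 0 in the same settings.

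Neurotrophins and their receptors, the partners of Ngfr, changed in both directions. Of 11 genes 4 were lower, 1 was higher and 6 did not pass, and without DEHP replicate 6 the number higher was 2. Ntrk2, the receptor for BDNF, rose (0.60 ± 0.06, limma adjusted p = 7.01e-06). Ntrk3, the receptor for neurotrophin-3, fell (−0.47 ± 0.07), as did the ligand gene Ntf4 (−0.54 ± 0.10). Bex3, which encodes a protein that binds p75, had a log2 fold of −0.18 ± 0.05.

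Relatives of Pmp22 changed in both directions. Of 6 genes of its membrane protein group, 3 were lower and 1 higher. Emp1 was 1.78-fold lower (−0.83 ± 0.12), Emp3 had a log2 fold of −0.31 ± 0.04 and Tmem47 of −0.36 ± 0.05, while Emp2 rose (0.33 ± 0.05). None of the 3 relatives of Uchl1 among ubiquitin hydrolases passed limma. At an unadjusted p under 0.05, 1 of them was higher, Bap1 (0.29 ± 0.11), with control replicate 5 at −0.71 and the other controls between −0.18 and 0.0041. Without that array the log2 fold of Bap1 was 0.19 and its limma adjusted p 0.017.

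Of 8 genes akin to Gap43 or active in growth cones, 3 were lower. These were Stmn1, which encodes the microtubule regulator stathmin (−0.86 ± 0.07), Basp1, a membrane protein of growth cones (−0.53 ± 0.08), and Stmn4 (−0.42 ± 0.11). In the list of SoxE and neural crest factors, beside Sox10, 1 of 10 was higher, Mitf (0.46 ± 0.05), and 2 were lower, Pax3 (−0.14 ± 0.04) and Ets1 (−0.25 ± 0.08), with limma adjusted p of 0.036 and 0.040. Each of these 2 lost its call when any 1 of 9 arrays was left out. Pax3 kept it without control replicate 1, control replicate 5 or DEHP replicate 5, and Ets1 without control replicate 5, DEHP replicate 4 or DEHP replicate 6. Of 7 type II cadherins, relatives of Cdh19, 1 was higher, the endothelial Cdh5 (0.53 ± 0.14, limma adjusted p = 0.015), and Cdh8 had the next smallest p (−0.13 ± 0.05, limma adjusted p = 0.15).

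**Figure D3:**
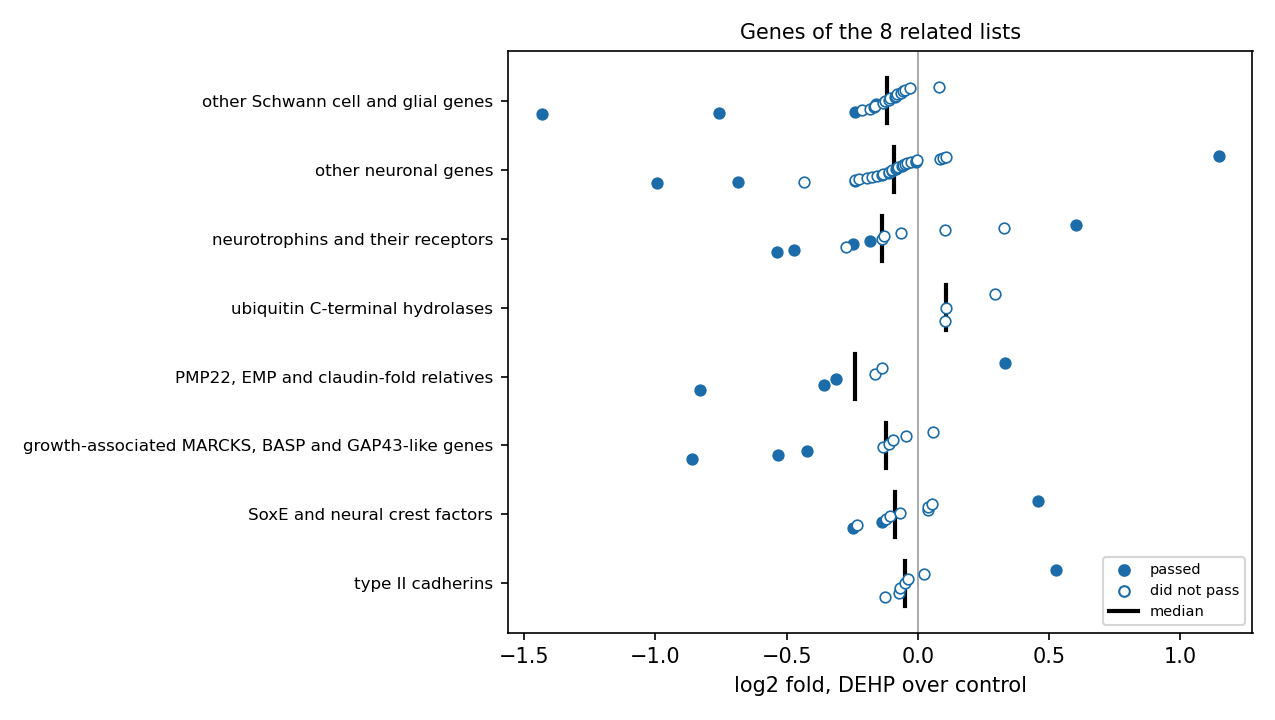
Log2 fold of DEHP over control (horizontal axis) for each measured gene of the 8 related lists, with filled points for genes that passed at an adjusted p under 0.05 and a black bar at each list's median. Most Schwann cell, glial and neuronal genes lie near their medians of −0.12 and −0.09, while Nrg1 at −1.43 and Ncam1 at 1.15 lie at the ends.

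For each marker that fell, the 5 named genes with the smallest root mean square difference of log2 ratios over the 12 arrays were taken as most alike. For Uchl1 they were Cnnm2 at 0.08, Stk38l at 0.09, Cfap45 at 0.11, Kcnk2 at 0.12 and Sh3bgr at 0.12 log2 units. Kcnk2 encodes a potassium channel and Stk38l a protein kinase. Their own log2 folds ran from −1.15 for Sh3bgr to −1.07 for Cfap45. For Pmp22 they were Praf2 at 0.04, Cercam at 0.06, Sh3bgrl1 at 0.06, Nherf2 at 0.06 and Ranbp1 at 0.06, with log2 folds from −0.34 for Ranbp1 to −0.25 for Sh3bgrl1. Nherf2 (−0.28 ± 0.08, limma adjusted p = 0.027) lost its call without any 1 of control replicates 2, 4 and 6 and DEHP replicates 1 and 4. This likeness describes the arrays and was computed over all named genes. The difference between groups enters it, so log2 folds close to those of Uchl1 and Pmp22 follow from the choice of genes.

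Markers of the cell types that such a culture can hold moved in the same arrays. All 8 measured smooth muscle and myofibroblast markers were lower, and their mean log2 ratio ran from 0.62 to 0.80 in controls and from −1.19 to −0.60 under DEHP, or −0.86 to −0.60 without DEHP replicate 6. Of 10 fibroblast markers 6 were lower and 3 higher, with means from −0.02 to 0.13 in controls and from −0.33 to −0.02 under DEHP. Without control replicate 5 the control means began at 0.05, and without DEHP replicate 6 the DEHP means began at −0.09. DEHP replicate 6, the lowest array for Pmp22, was the lowest DEHP array for the smooth muscle, fibroblast, cardiomyocyte, endothelial and neuronal lists, but not for the Schwann cell and leukocyte lists. Of 10 cardiomyocyte markers 2 were lower and 4 higher, or 2 higher without control replicate 4. Endothelial markers gave 3 rises among 6, and leukocyte markers 3 rises and 2 falls among 10, with 4 falls without DEHP replicate 6. The part of any of these cell types in the falls of Uchl1 and Pmp22 was not tested.

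The defining Schwann cell markers, Sox10, Cdh19, Ngfr and Mbp among them, gave 1 fall among 8, that of S100b. S100b kept its call in 3 of the 12 fits with 1 array left out. The mean log2 ratio of the 8 ran from −0.12 to 0.30 in controls and from −0.09 to 0.11 under DEHP, and control replicate 5 was the highest. Their median log2 fold was −0.096, and −0.035 without control replicate 5 and DEHP replicate 6. All 8 lay below 0 with all arrays, and 7 without that pair. Of all named genes, 55.4% and 50.1% lay below 0 in the same settings. Of 9 defining neuronal markers, the list that holds Uchl1 and Gap43, 2 were lower, Uchl1 and Tubb3. Their mean ran from 0.09 to 0.32 in controls, again highest in control replicate 5 (0.17 at most without it), and from −0.24 to −0.06 under DEHP. With Uchl1 and Tubb3 set aside, a choice made after their values were seen, the mean of the other 7 ran from −0.04 to 0.30 in controls and from −0.09 to 0.09 under DEHP, so the groups overlapped. The median log2 fold of the 9 was −0.11, and −0.016 without control replicate 5 and DEHP replicate 6, when 5 of the 9 lay below 0 instead of 9.

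**Figure D4:**
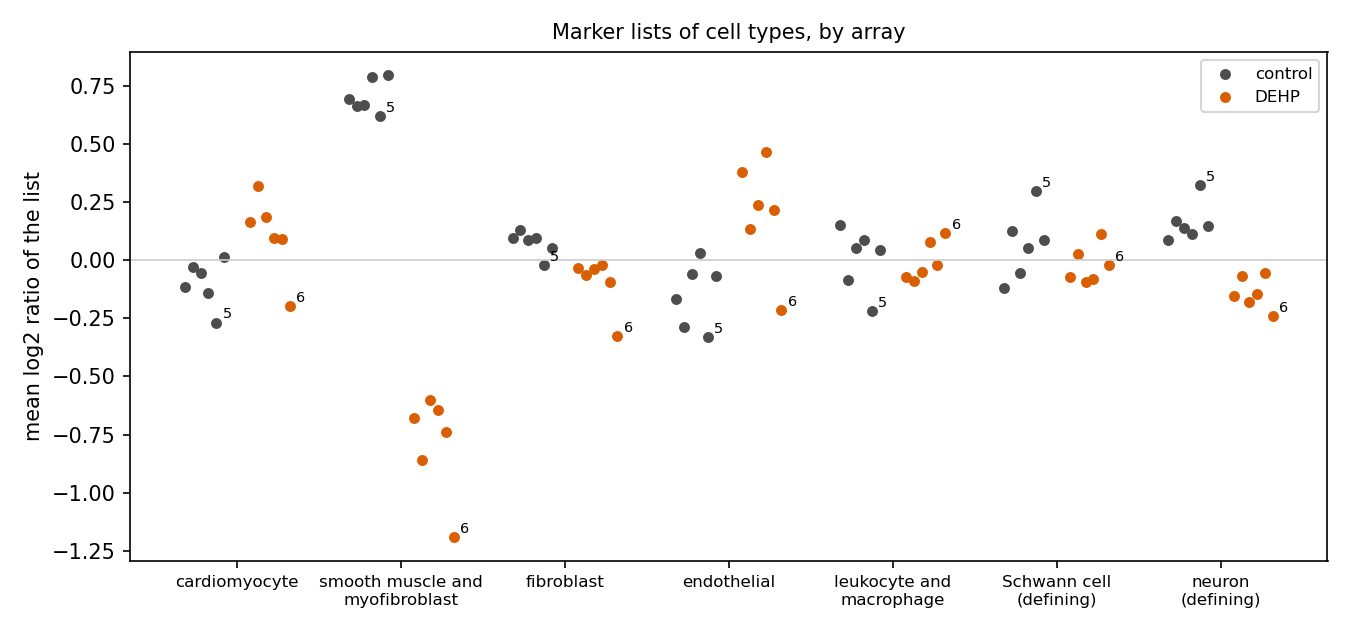
Mean log2 ratio of the measured genes of each cell type list (vertical axis), with 1 point per array, grey for control and orange for DEHP; control replicate 5 and DEHP replicate 6 are numbered. The smooth muscle list separates the groups, from 0.62 to 0.80 against −1.19 to −0.60, while the Schwann cell list overlaps between groups.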

How the data were processed

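RNA of 12 cultures was measured on Affymetrix arrays, 1 per culture. RMA is the tool that the submitters' processing notes name for the authors' work, without a version. What was deposited is a linear ratio of each signal to the median of its probe set over the 12 arrays, as the values show, with array medians of 0.99 to 1.02. Precision is limited by how many arrays there are. Probe sets with 1 gene symbol (15097) were named through the platform annotation, 323 had several and 11922 none. Of the identifiers, 15067 matched the GRCr8 gene table and 0 symbols changed. A gene with several probe sets took the lowest-numbered.

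Log2 of the ratios went into limma 3.58.1 (R 4.3.3), lmFit and eBayes, with groups from the titles; tests were two-sided, and p-values were adjusted by Benjamini-Hochberg over 27342 probe sets. The fit was also run on simulated arrays with independent normal noise of equal spread in every array. The real arrays differ from this, since control replicate 5 and DEHP replicate 6 were noisier. That run therefore checks the code and not the calls made here. Named genes were the 7 markers, up to 4 genes of smallest p that passed per list (2 where fewer passed) and the 5 nearest genes, with Th, Dbh, Phox2a and Npy added after their values were seen. The markers and lists were chosen with earlier results of these data known. Alternatives were quantile normalization, median centring, array weights, robust eBayes, the mean of a gene's probe sets, probe sets with 1 symbol, the replicate number as a block, left-out arrays and an exact permutation test. A filter on dim probe sets could not be run on ratios. Plots used matplotlib 3.10.9.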

Additional observations from a re-analysis of the deposited data

Results flagged for a closer look

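In each group of 6 arrays, the gap between the highest or lowest array and its nearest neighbour was compared with the range of the group by Dixon's test at its 95% limit. Of 96 such groups, 8 went past it, all through DEHP replicate 6 or control replicate 5. The limit marks about 1 in 20 groups of independent values. These groups share arrays, and some genes were added after their values were seen or for their likeness to Uchl1 or Pmp22. The count can therefore not be set against chance. DEHP replicate 6 was low for Pmp22, at −0.40 against −0.13 to −0.06 in the other DEHP arrays. The same array was low for Tubb3, at −1.09 against −0.55 to −0.34, and for Nherf2, at −0.44 against −0.13 to 0.0052, and for Dbh, at −0.35 against −0.08 to 0.05. It was high for Egr2, at −0.0069 against −0.93 to −0.61, and for Npy, at 0.40 against −0.64 to −0.36. Control replicate 5 was low for Bap1, at −0.71 against −0.18 to 0.0041, and for Cnnm2, at 0.32 against 0.58 to 0.69.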

How the results depend on the processing

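The falls of Uchl1 and Pmp22 kept their direction and their call under all alternatives run. Some of these could not move their log2 folds: the mean of a gene's probe sets, probe sets with 1 symbol, robust eBayes and the replicate block. The permutation p is not adjusted, and it takes its smallest value for any gene whose groups do not overlap. With 1 array left out in turn, the log2 fold of Uchl1 ran from −1.16 to −1.08 and that of Pmp22 from −0.32 to −0.25. Sox10 was below 0 throughout and passed with array weights alone, at −0.22. With array weights 29 genes of the related lists and 3423 probe sets were lower, against 19 and 2139 as reported (7.82% of probe sets; 10.5% were higher). The sign of 4 markers whose log2 fold lay near 0 turned. With quantile normalization Cdh19 was 0.0040, Ngfr 0.052 and Gap43 0.00099. With median centring Cdh19 was 0.0028 and Ngfr 0.0037. With array weights Cdh19 was 0.0082, Ngfr 0.0017 and Gap43 0.023. Without control replicate 5 and DEHP replicate 6 together Ngfr was 0.086 and Gap43 0.0012. With 1 array left out, Cdh19 ran from −0.015 to 0.0076, Gap43 from −0.055 to 0.024, Mbp from −0.079 to 0.0071 and Ngfr from −0.069 to 0.082. None of these 4 passed limma under any alternative run. The log2 fold of Th was 0.0097 with quantile normalization and 0.034 without that pair, and ran from −0.067 to 0.030 with 1 array left out. Npy stayed below 0, from −0.60 to −0.38, and also passed with quantile normalization, array weights, probe sets with 1 symbol and the replicate block. Same-numbered arrays shared deviations in 5 of 6 pairs at a correlation above 0.1 (0.07 to 0.77). Of 6 controls, 3 were closest to their own number. The numbers were not taken as pairs because the labels do not say that they pair the arrays. A fit with the number as a block was therefore run as an alternative, and with it 2899 probe sets were lower and 3642 higher. With the replicate block 26 genes of the lists were lower and 6 higher, and no marker changed its call. Each number holds a control and a DEHP array, so the block cannot change a log2 fold, only its SE and p. For Uchl1, at −1.13, the limma adjusted p was 3.01e-06. What causes these differences between settings was not tested. Brightness over background is unknown, so small differences of dim probe sets cannot be set apart.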
